A study of Mus musculus with 39 samples.

Results

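Gastrocnemius muscles from mice that had carried a Lewis lung carcinoma (LLC) tumour for 28 days were compared with those from mice that had carried one for 7 days, here called week 4 and week 1. The libraries were chosen by the labelled time of tumour development alone, which gave 16 of the 38 libraries with counts, 8 of week 4 and 8 of week 1. All mice were C57BL/6 and received LLC cells in the flank at 8 weeks of age, so both groups carry the tumour and differ in its duration and, by the same time, in age, which cannot be told apart. LLC is a line from a mouse lung tumour that is grown in this strain as a model of cachexia. The other libraries were 8 of PBS, 7 of week 2 and 7 of week 3, and they enter only where named. Replicates are numbered in the order of the series. Nothing in the labels says whether each came from a separate animal, so a p-value here refers to the variation among the libraries, part of which may be technical.

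Cachexia is the loss of muscle that can accompany a tumour. In wasting muscle the ubiquitin ligases Fbxo32 (atrogin-1) and Trim63 (MuRF1) mark proteins for the proteasome, and FoxO transcription factors, glucocorticoids and cytokines that act through STAT3 are known to raise them. The gastrocnemius is made up mainly of fast fibres, which live largely on glycolysis and hold a smaller store of mitochondria than slow fibres.

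Reads in genes numbered 13356756 to 21942048 per week 4 library and 14395575 to 24801565 per week 1 library. The file names give the sequencing lane. Week 4 had 5 libraries on lane 2 (replicates 1 to 5) and 3 on lane 4 (replicates 6 to 8). Week 1 had 3 on lane 2 (replicates 4, 5 and 8), 2 on lane 4 (replicates 2 and 3) and 3 on lane 5 (replicates 1, 6 and 7). The comparison therefore carries a term for lane, and lane 5 bears only on the spread. Reads that matched more than 1 place in the genome made up 9.40% to 23.6% in week 4 libraries, and 7.47% and 8.35% in week 1 replicates 5 and 8, with 11.5% to 25.2% in the other 6 of week 1. Reads on the mitochondrial chromosome made up 9.62% to 15.6% of gene reads in week 4, and 21.6% and 20% in week 1 replicates 5 and 8, with 10.3% to 19.7% in the other 6 of week 1. The muscle markers fixed for the tissue were present throughout, with a summed level of 101400 to 159000 CPM in week 4 libraries and 135000 to 192900 CPM in week 1 libraries (CPM, the count relative to the TMM-scaled library size).

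At week 4 the muscle had more RNA of neutrophil, macrophage and red cell genes, of acute phase and cytokine signalling genes and of proteasome subunits than at week 1, and less RNA of oxidative phosphorylation, citric acid cycle and glycolytic genes and of several genes of the contractile and calcium release machinery. In all, 2070 of 13718 genes passed an adjusted p of 0.05 (edgeR quasi-likelihood test with Benjamini-Hochberg adjustment), which is 15.1% of those tested. Of these, 1040 (7.58%) were higher and 1030 (7.51%) lower at week 4. The rises were the larger ones, with a median log2 fold change of 0.72 among genes called higher and -0.57 among those called lower. At least 2-fold changes numbered 325 among the rises and 138 among the falls.

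**Figure D1:**
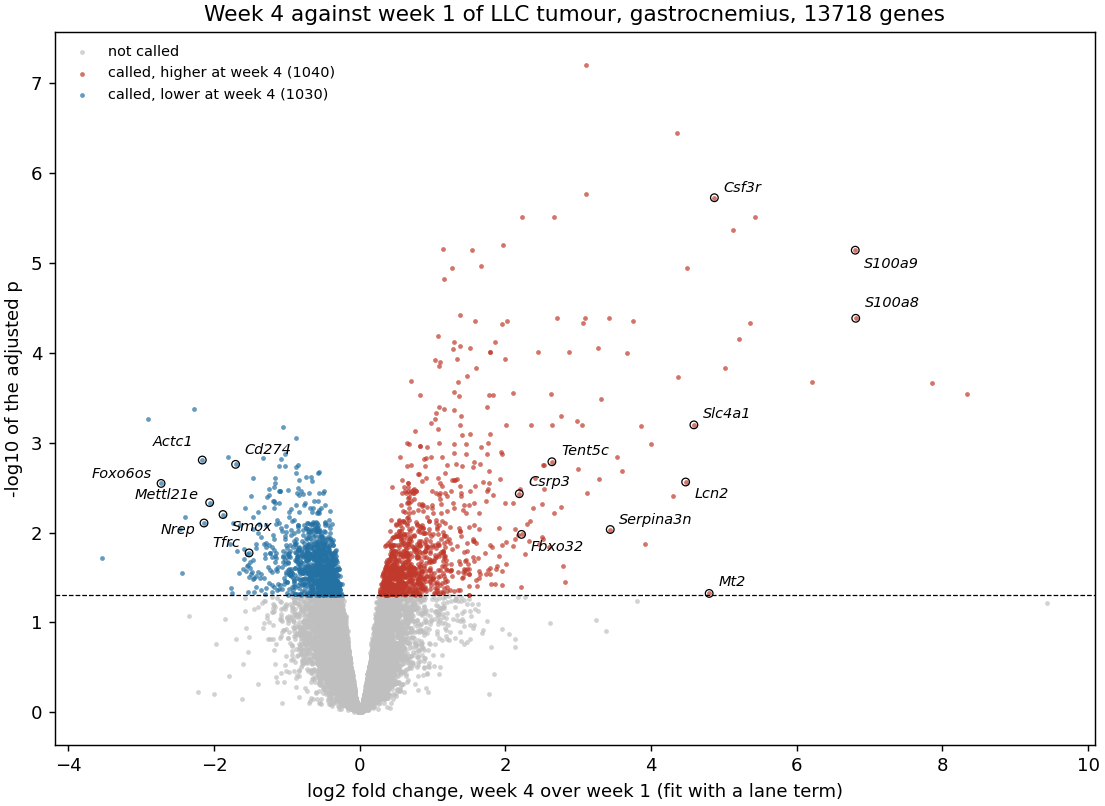
Log2 fold change of week 4 over week 1 (x axis) against −log10 of the adjusted p (y axis) for the 13718 genes tested, with 1040 genes called higher in red, 1030 called lower in blue and the threshold as a dashed line. The points reach farther to the right, where S100a8 and S100a9 stand at 6.81 and 6.80, than to the left, where Foxo6os stands at -2.73.

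The groups were fully separated in 315 genes (2.3% of those tested): all 8 week 4 libraries lay above the week 1 range in 234 genes (1.71%) and below it in 81 (0.59%). Of the genes called, 225 of 1040 higher and 76 of 1030 lower ones were separated in this way. Without the lane term 2661 genes were called (19.4% of those tested), 1518 higher (11.1%) and 1143 lower (8.33%). Within lane 2 alone 1345 of 14023 genes were called (9.59%), 740 higher (5.28%) and 605 lower (4.31%). Within lane 4, with 3 libraries against 2, 16 of 14205 genes were called (0.113%), 12 higher (0.0845%) and 4 lower (0.0282%), and 1110 had an unadjusted p under 0.05. Of 706 genes called higher within lane 2, 667 (94.5%) were also above 0 within lane 4. Of 601 called lower, 523 (87.0%) were also below 0 there. For comparison, 50.5% of all genes tested in both lanes were above 0 within lane 4. A direct test of the difference between the lanes called 1 of 14087 genes (0.0071%; Gm16199, log2 fold change 8.40 within lane 2 and -0.63 within lane 4), with 892 genes at an unadjusted p under 0.05.

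**Figure D2:**
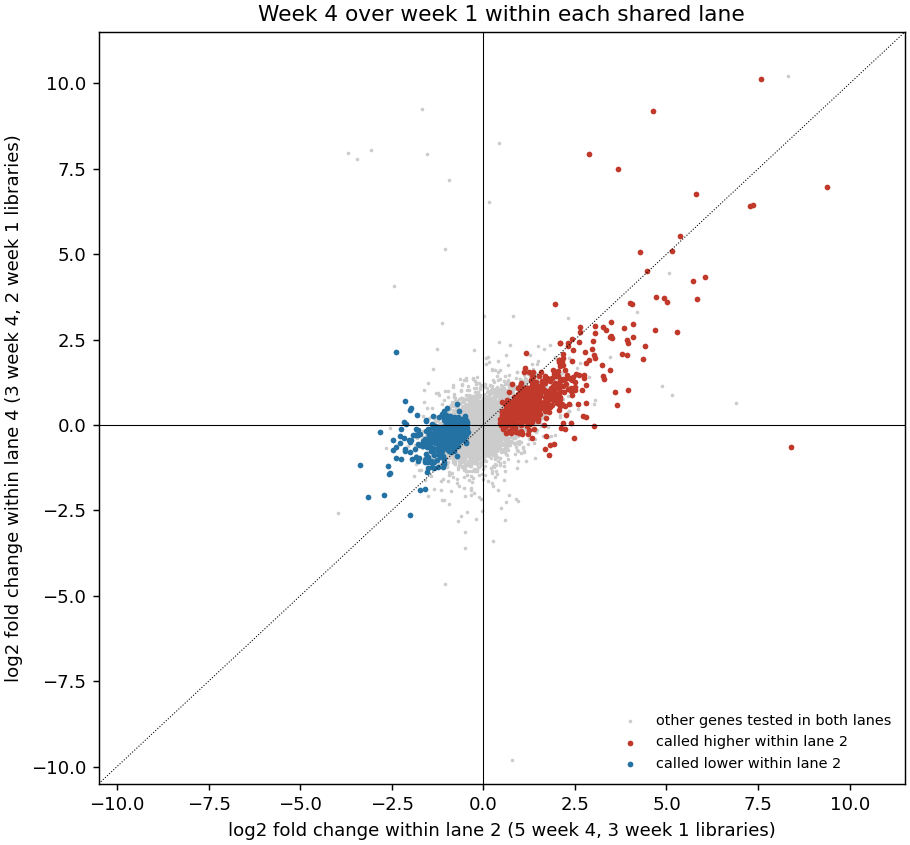
Log2 fold change of week 4 over week 1 within lane 2 (x axis, 5 against 3 libraries) and within lane 4 (y axis, 3 against 2 libraries) for the 13555 genes tested in both lanes and in the whole set. Genes called within lane 2, 680 higher (red) and 601 lower (blue), mostly keep their sign within lane 4 but lie nearer to 0 there than the dotted line of equal change.

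The call count rested most on the 3 week 1 libraries of lane 2 and on 1 week 4 library. It was 828 without week 1 replicate 4, 958 without replicate 5, 1042 without replicate 8, and 1182 without week 4 replicate 6. With both week 1 libraries of few multi-place reads left out, which leaves 1 week 1 library on lane 2, it was 246, of which 223 were among the 2070, and none of the 2070 genes changed sign. Among genes described here, S100a9, Slc4a1, Lcn2, Osmr, Plvap and Actc1 were still called in that fit, while Fbxo32 (log2 fold change 1.88, adjusted p = 0.12 by edgeR), Serpina3n (3.34, 0.0989), Csrp3 (1.99, 0.0633), Xirp1 (1.72, 0.0518), Smox (-1.65, 0.0681), Nrep (-2.16, 0.0501) and Idh3a (-0.73, 0.0568) were not.

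The week 4 libraries were not alike. Replicate 5 was the farthest from week 1 of the 8 in 423 of the 1040 genes called higher and in 629 of the 1030 called lower. Replicates 7 and 8, both on lane 4, were the nearest to week 1 in 406 and 334 of the higher genes and in 414 and 388 of the lower ones. Among genes called higher, 42.3% and 48.2% lay above the week 1 range in replicates 7 and 8, against 79.0% to 91.3% in the other 6 week 4 libraries. Replicate 6, also on lane 4, had 85.0%. Among genes called lower, 28.5% and 29.8% lay below the week 1 range in replicates 7 and 8, against 71.1% to 94.8% in the other 6.

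Myeloid genes led the 12 largest rises among the named genes. S100a8 and S100a9, neighbours on chromosome 3 that encode the calprotectin subunits of neutrophils, were near the detection limit at week 1. S100a9 had a lowest, median and highest level of 27.9, 39.8 and 116 CPM in week 4 libraries, against 0.0757, 0.663 and 2.66 CPM in week 1 libraries (log2 fold change 6.80 ± 0.55 SE, adjusted p = 7.19e-06). S100a8 had 15.2, 22.2 and 76.3 CPM in week 4 libraries, against 0, 0.448 and 1.61 CPM in week 1 libraries (6.81 ± 0.65). Week 4 replicate 6 was the highest for both, and the groups did not overlap.

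Csf3r, the receptor for granulocyte colony-stimulating factor, had 5.87, 15.6 and 27.1 CPM in week 4 libraries, against 0.151, 0.516 and 1.38 CPM in week 1 libraries (log2 fold change 4.87 ± 0.38, adjusted p = 1.87e-06). Cxcr2, the neutrophil chemokine receptor, rose by 5.12 ± 0.46 and Mmp9, a gelatinase of neutrophil granules, by 3.06 ± 0.44. Slfn4, a Schlafen gene of myeloid cells, had 6.06, 12.4 and 15.5 CPM in week 4 libraries, against 0.2, 0.621 and 0.826 CPM in week 1 libraries (4.35 ± 0.31). Csf2rb, which encodes the shared beta chain of the GM-CSF, IL-3 and IL-5 receptors, rose by 3.11 ± 0.25. Its near-identical copy Csf2rb2 rose by 3.10 ± 0.19. Reads that match both copies stayed out of the counts, as did all reads matching more than 1 place. Of the 14 neutrophil markers, 12 were tested and 11 called higher (median 5.07, against -0.01 over all genes), while Camp and Ly6g had too few reads. Several of the 12 entered the test through week 4 alone, so the count describes them and no more. Their summed level was 69.4 to 321 CPM in week 4 libraries and 3.52 to 11.1 CPM in week 1 libraries.

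Macrophage and monocyte markers rose by less, with 15 of 19 called higher (78.95%, against 7.58% of all genes tested) and 0 lower (median 1.06). Itgam (CD11b) had 6.42, 14.7 and 19.7 CPM in week 4 libraries, against 2.49, 4 and 5.14 CPM in week 1 libraries (log2 fold change 1.67 ± 0.26, adjusted p = 0.0011 by edgeR). Tyrobp (DAP12), an adaptor of myeloid receptors, rose by 1.46 ± 0.23, Laptm5, a lysosomal protein of blood cells, by 1.13 ± 0.19, and Lyz2 (lysozyme) by 0.91 ± 0.16. Itgam and Tyrobp did not overlap between the groups. The summed level of the list was 192 to 366 CPM in week 4 libraries and 102 to 183 CPM in week 1 libraries. Ptprc (CD45), the pan-leukocyte phosphatase, had 9.72, 15.3 and 25.5 CPM in week 4 libraries, against 3.03, 4.42 and 4.94 CPM in week 1 libraries (1.79 ± 0.22, adjusted p = 9.79e-05). It was the only one of 16 lymphocyte markers with enough reads to be tested. The 16 markers summed to 11.5 to 28.6 CPM in week 4 libraries and 3.48 to 7.32 CPM in week 1 libraries, Ptprc included. In whole muscle, more cells of a type and more RNA per cell cannot be told apart, and likewise for fewer. The macrophage count was 3 with week 1 replicates 5 and 8 left out.

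Erythroid genes rose together in most week 4 libraries. Slc4a1 (band 3), the anion exchanger of the red cell membrane, had 2.81, 13.2 and 51.3 CPM in week 4 libraries, against 0.0577, 0.698 and 2.01 CPM in week 1 libraries (log2 fold change 4.59 ± 0.62, adjusted p = 0.000632 by edgeR). Hbb-bt (adult beta-globin) rose by 2.14 ± 0.46. Week 4 replicate 3 was the highest for Slc4a1 and Tent5c, with 51.3 and 77.6 CPM, and replicate 6 the lowest, with 2.81 and 7.21 CPM. Tent5c, a poly(A) polymerase expressed in red cell precursors among other tissues, rose by 2.64 ± 0.41 and followed that order, although it was not on the list. Reads that match more than 1 of the near-identical beta-globin copies stayed out of the counts, so the level of Hbb-bt is uncertain.

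Of 10 erythroid markers tested, 8 rose and 1, Tfrc, fell. Slc4a1 entered the test through its week 4 levels, so the count describes these markers and no more. Tfrc, the transferrin receptor, is also the iron uptake receptor of muscle. It had 24.7, 48.4 and 148 CPM in week 4 libraries, against 109, 155 and 221 CPM in week 1 libraries (log2 fold change -1.52 ± 0.36, adjusted p = 0.0168 by edgeR), with replicate 8 of week 4 inside the week 1 range. Its adjusted p was 0.0548 without week 1 replicate 4. The list's summed level was 829 to 3738 CPM in week 4 libraries and 361 to 841 CPM in week 1 libraries. The count of rises was 2 with week 1 replicates 5 and 8 left out.

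Of 19 endothelial markers, 7 rose (36.8%, against 7.58% of all genes tested) and 0 fell (median 0.28). Plvap, the diaphragm protein of fenestrated endothelium, had 23.2, 34.1 and 37.6 CPM in week 4 libraries, against 10.9, 12.2 and 16.2 CPM in week 1 libraries (log2 fold change 1.27 ± 0.13, adjusted p = 1.13e-05 by edgeR). Vwf (von Willebrand factor) rose by 1.05 ± 0.15, Eng (endoglin, a TGF-beta co-receptor) by 0.76 ± 0.12 and Sox17, an arterial transcription factor, by 0.74 ± 0.14. Plvap, Vwf and Sox17 did not overlap between the groups.

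Genes of cytokine signalling through STAT3 rose at the receptor and among known targets. Osmr, the oncostatin M receptor, had 30.3, 35.1 and 64.3 CPM in week 4 libraries, against 9.34, 14.1 and 19.7 CPM in week 1 libraries (log2 fold change 1.35 ± 0.18, adjusted p = 0.000213 by edgeR). Stat3 itself had 82.1, 102 and 241 CPM in week 4 libraries, against 46.8, 60.9 and 63.8 CPM in week 1 libraries (0.99 ± 0.23, adjusted p = 0.0143). Neither gene overlapped between the groups.

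Socs3, the feedback inhibitor that STAT3 induces, had 5.46, 8.09 and 40.0 CPM in week 4 libraries, against 2.42, 3.97 and 5.87 CPM in week 1 libraries (1.89 ± 0.49, adjusted p = 0.0238 by edgeR). Week 4 replicates 4 and 5 stood apart at 23.5 and 40.0 CPM. Bcl3, an atypical inhibitor of NF-kB, rose by 1.92 ± 0.34 and Junb, an AP-1 subunit, by 2.00 ± 0.37, while Jak2, the kinase that activates STATs, fell by 0.88 on the log2 scale. In all, 6 of 14 genes of the pathway (median 0.44) rose (42.9%) and 2 fell (14.3%), against 7.58% and 7.51% of all genes tested. Without week 1 replicate 4, Stat3 and Socs3 were not called (adjusted p = 0.0533 and 0.0709), and 3 genes of the pathway rose. Socs3 was also not called without week 1 replicate 5 or 8 (0.0613 and 0.0572) or within lane 2 alone (0.112).

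Acute phase proteins, best known as liver products, were among the largest rises. Lcn2 (lipocalin 2, also a neutrophil granule protein) had 3.61, 11.5 and 40.4 CPM in week 4 libraries, against 0.332, 0.688 and 1.14 CPM in week 1 libraries (log2 fold change 4.47 ± 0.73, adjusted p = 0.00273 by edgeR). Serpina3n, a serine protease inhibitor that muscle secretes under glucocorticoids and cytokines, had 8.9, 23.1 and 105 CPM in week 4 libraries, against 1.17, 3.22 and 5.75 CPM in week 1 libraries (3.44 ± 0.69, adjusted p = 0.00923). C3 (complement component 3) rose by 1.27 ± 0.22. Week 4 replicates 4, 5 and 6 were the 3 highest for Lcn2 and Serpina3n, and neither gene overlapped between the groups. Of the 16 acute phase genes, 6 were tested, 4 of which rose and 0 fell. Lcn2 entered the test through its week 4 levels, so the count describes these genes and no more.

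Receptors and effectors of NF-kB followed, with 7 of 16 genes higher (43.75%, against 7.58% of all genes tested) and 0 lower (median 0.32). Tnfrsf1a, the main TNF receptor, had 27, 32.7 and 49.3 CPM in week 4 libraries, against 15.1, 20.2 and 24.5 CPM in week 1 libraries (log2 fold change 0.91 ± 0.15, adjusted p = 0.00149 by edgeR). Tnfrsf12a (Fn14), the TWEAK receptor, had 5.50, 18.4 and 51.6 CPM in week 4 libraries, against 2.27, 6.33 and 7.69 CPM in week 1 libraries (2.27 ± 0.54, adjusted p = 0.0173), and its adjusted p was 0.0523 without week 1 replicate 5. Birc3 (cIAP2), an NF-kB target and ubiquitin ligase of TNF signalling, rose by 0.77 ± 0.14. The count of rises was 3 without week 1 replicate 5 and 4 without week 1 replicate 4 or 8 or week 4 replicate 6. Eda2r, the ectodysplasin A2 receptor that feeds into NF-kB and is a known p53 target, had 46.8, 214 and 423 CPM in week 4 libraries, against 26.6, 39.8 and 73.0 CPM in week 1 libraries (2.17 ± 0.46, adjusted p = 0.0106). Only replicate 8 of week 4 lay inside the week 1 range of Eda2r.

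Of 27 interferon-induced genes 2 rose and 2 fell (median -0.14), which is 7.41% each way and near the 7.58% and 7.51% of all genes tested, and 0 rose without week 1 replicate 4 or 8, while 5 fell without week 4 replicate 7. Gbp3, an interferon-induced GTPase, had 2.77, 4.65 and 6.94 CPM in week 4 libraries, against 5.83, 8.86 and 18.9 CPM in week 1 libraries (log2 fold change -1.29 ± 0.27, adjusted p = 0.0083 by edgeR). Cd274 (PD-L1), an interferon-inducible immune checkpoint ligand, was among the 12 largest falls. It had 2, 2.81 and 3.71 CPM in week 4 libraries, against 4.24, 7.08 and 16.8 CPM in week 1 libraries (-1.70 ± 0.28, adjusted p = 0.00174), with no overlap.

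Of the muscle ubiquitin ligases, Fbxo32 rose and the call held with any 1 library left out. Fbxo32, on chromosome 15, had 626, 1926 and 5068 CPM in week 4 libraries, against 291, 393 and 701 CPM in week 1 libraries (log2 fold change 2.22 ± 0.47, adjusted p = 0.0105 by edgeR), a 4.66-fold difference. Replicate 7 of week 4 was its lowest and the only one inside the week 1 range. Trim63 had 286, 861 and 3865 CPM in week 4 libraries, against 228, 322 and 489 CPM in week 1 libraries, with an estimate of 2.18 ± 0.70 close to that of Fbxo32 and an adjusted p of 0.0526. Week 4 replicates 3, 4, 5 and 6 lay at 1070.3, 2736, 3865 and 3113 CPM, replicate 8 at 652 CPM, and replicates 1, 2 and 7 at 399, 321 and 286 CPM, inside the week 1 range. Without the lane term the adjusted p of Trim63 was 0.0113. It was 0.0399, 0.0397, 0.0241 and 0.0446 without week 4 replicate 1, 2, 7 and 8. Trim63 was called in these 4 of the 16 fits that left out 1 library. In the other fits its adjusted p was as high as 0.16 (edgeR), and its estimate was lowest, at 1.70, without week 4 replicate 6.

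**Figure D3:**
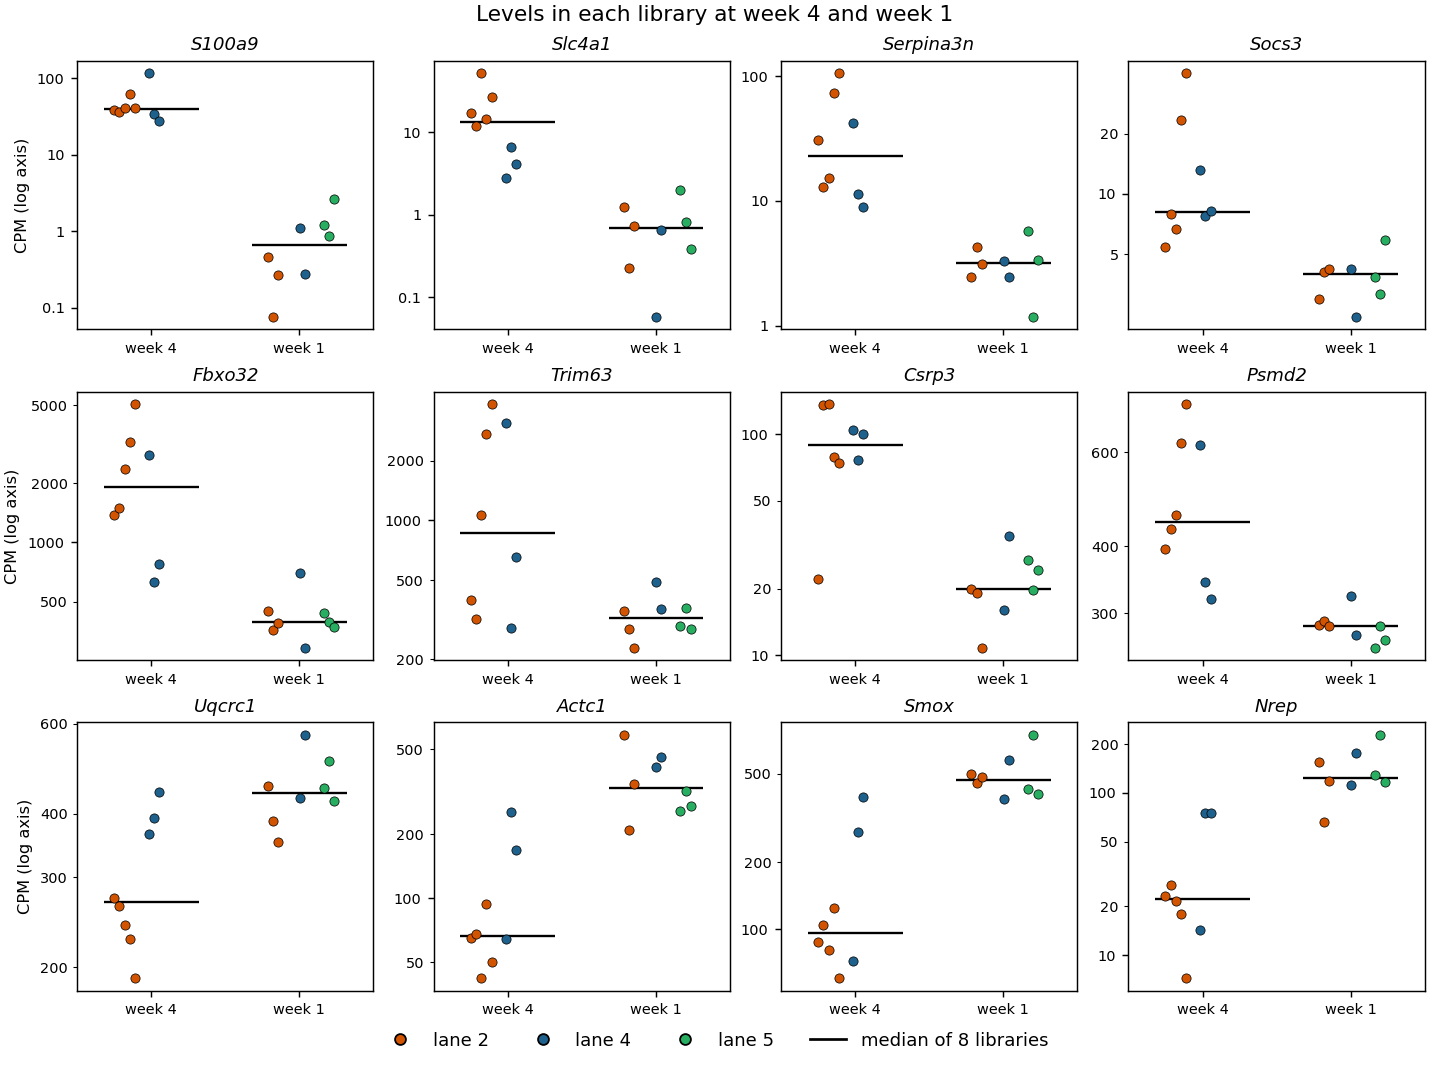
Levels in CPM (log axes) of 12 genes in each of the 8 week 4 libraries (left in each panel) and 8 week 1 libraries (right), coloured by lane, with the median as a line. Fbxo32, Trim63, Socs3 and Serpina3n spread more widely at week 4 than at week 1, and the lane 4 replicates 7 and 8 of week 4 lie nearest to week 1 for Smox (274 and 394 CPM), Actc1 and Nrep.

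The promoter windows of 3 genes of the wasting response are shown because textbook regulators of each have a known DNA motif, and each window holds 1 match. They are the 250 bases before the RefSeq start of the gene in GRCm38.p6, with the match in capitals. The letters searched, on both strands, were GTAAACA for FoxO in Trim63, TTCNNNGAA for STAT in Socs3 and TGCGCNC for the metal response element in Mt2. Other forms of these motifs were not searched. The windows lie at chr4:134314870-134315119 (plus strand), chr11:117969367-117969616 (minus strand) and chr8:94172368-94172617 (plus strand), and the matches begin 194, 154 and 128 bases before the start.
Trim63: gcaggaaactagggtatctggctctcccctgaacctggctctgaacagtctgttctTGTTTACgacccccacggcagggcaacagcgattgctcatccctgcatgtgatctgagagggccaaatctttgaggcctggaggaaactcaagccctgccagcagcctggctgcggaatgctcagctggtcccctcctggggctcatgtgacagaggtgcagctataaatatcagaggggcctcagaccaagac
Socs3: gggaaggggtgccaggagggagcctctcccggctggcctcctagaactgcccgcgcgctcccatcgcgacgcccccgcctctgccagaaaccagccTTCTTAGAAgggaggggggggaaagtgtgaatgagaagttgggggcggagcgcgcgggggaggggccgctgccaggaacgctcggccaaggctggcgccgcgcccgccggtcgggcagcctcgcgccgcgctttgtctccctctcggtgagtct
Mt2: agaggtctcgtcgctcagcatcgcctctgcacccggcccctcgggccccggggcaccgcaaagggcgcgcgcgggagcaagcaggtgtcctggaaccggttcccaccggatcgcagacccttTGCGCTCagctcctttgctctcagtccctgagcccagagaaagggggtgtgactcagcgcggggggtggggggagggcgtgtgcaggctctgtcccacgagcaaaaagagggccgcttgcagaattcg

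Windows were on hand in the RefSeq table for 808 genes called higher, 779 called lower and 10103 of all tested. The FoxO motif stood in 2.23% of windows of genes called higher and 1.93% of those called lower, against 2.67% of all tested. The STAT motif stood in 8.91% of higher and 6.80% of lower genes, against 7.16% of all tested. The metal response element stood in 20.5% and 22.0%, against 25.0%. The glucocorticoid receptor motif TGTTCT stood in 16.1% and 12.7%, against 12.9%, and the E-box CACGTG in 9.28% and 8.60%, against 9.88%. A match is a description of the letters, not a binding site, and the shares were not tested.

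Of 18 ubiquitin ligases and atrophy genes 3 rose (16.7%, against 7.58% of all genes tested) and 0 fell (median 0.04). The rises numbered 1 without week 1 replicate 4 or 8 and 5 without week 4 replicate 1 or 8. Foxo1, which drives both ligases, had 17.6, 39.1 and 74.4 CPM in week 4 libraries, against 16.1, 22.6 and 58.3 CPM in week 1 libraries (log2 fold change 0.25 ± 0.36, adjusted p = 0.68 by edgeR). Only 1 of 20 FoxO and glucocorticoid genes was called (5%, against 15.1% of all genes tested), although the median of the list was 0.32. Cdkn1a (p21), a cell cycle inhibitor that rises in wasting muscle, had 13.4, 43.5 and 89.1 CPM in week 4 libraries, against 9.36, 15.6 and 25.8 CPM in week 1 libraries (1.47 ± 0.50, adjusted p = 0.063), with adjusted p of 0.0161 without the lane term. Cdkn1a was called in 3 of the 16 fits that left out 1 library, with adjusted p up to 0.142 (edgeR) in the others.

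All 31 proteasome subunits had estimates above 0 (median 0.52), and 12 rose (38.7%, against 7.58% of all genes tested). Psmd2, a scaffold of the regulatory particle, had 319, 445 and 738 CPM in week 4 libraries, against 259, 284 and 323 CPM in week 1 libraries (log2 fold change 0.72 ± 0.18, adjusted p = 0.0146 by edgeR). Psmd3, of the same particle, rose by 0.79 ± 0.18. Week 4 replicates 4, 5 and 6 were the highest for Psmd2. Sqstm1 (p62), the autophagy adaptor that also binds ubiquitin, had 536, 927 and 1935 CPM in week 4 libraries, against 414, 519 and 561 CPM in week 1 libraries (0.89 ± 0.22, adjusted p = 0.0159). It was 1 of 3 rises among 24 autophagy and lysosome genes (12.5%, against 7.58% of all genes tested), with 0 falls. The count of these rises was 1 without week 1 replicate 5 and 5 without week 4 replicate 7. The proteasome count was 7 and 4 without week 4 replicate 4 and 6, 6, 3, 2 and 4 without week 1 replicate 3, 4, 5 and 8, and 0 without both week 1 replicates 5 and 8.

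Metallothioneins, small proteins that bind zinc and copper and respond to glucocorticoids and metals, were high in only some week 4 libraries. Mt2 had 265, 352 and 461 CPM in week 4 replicates 4, 5 and 6, 32.0 CPM in replicate 8 and 3.71 to 9.06 CPM in the other 4, against 1.87 to 8.31 CPM in week 1 libraries. The estimate was a log2 fold change of 4.80 ± 1.48 with an adjusted p of 0.0475 (edgeR), and the call was lost in 12 of the 16 fits that left out 1 library, with adjusted p up to 0.148 without week 4 replicate 6. Mt1 had 178, 312 and 410 CPM in the same replicates 4, 5 and 6 and 6.83 to 35 CPM in the other 5, against 3.07 to 18.8 CPM in week 1 libraries (3.80 ± 1.24, adjusted p = 0.0573). These were also the 3 highest libraries for Lcn2, Serpina3n, Socs3, Cdkn1a and Fbxo32.

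Of 22 heat shock proteins and chaperones 7 rose (31.8%, against 7.58% of all genes tested) and 1 fell (median 0.53). Of 22 genes of the unfolded protein and integrated stress response 5 rose (22.7%) and 1 fell (median 0.25), and of 21 antioxidant genes 3 rose (14.3%) and 2 fell (median 0.31). The falls were 4.55%, 4.55% and 9.52% of these lists, against 7.51% of all genes tested. Gpx3, the extracellular glutathione peroxidase, had 218, 279 and 334 CPM in week 4 libraries, against 100, 143 and 155 CPM in week 1 libraries (log2 fold change 1.09 ± 0.14, adjusted p = 0.000139 by edgeR), with no overlap. Gsta4, a glutathione transferase that clears lipid aldehydes, fell by 0.87 on the log2 scale. The chaperone count was 1 without week 4 replicate 6 or week 1 replicate 4, 5 or 8 and 4 without week 4 replicate 4. It was 0 without both week 1 replicates 5 and 8. For the unfolded protein response the count of rises was 0 without week 4 replicate 6 or week 1 replicate 4, 5 or 8, 2 without week 4 replicate 4, 3 without week 4 replicate 5 or week 1 replicate 1 or 6, and 8 without week 4 replicate 7. Antioxidant rises numbered 1 without week 1 replicate 4, 5 or 8 and 6 without week 4 replicate 8, and falls 1 without week 1 replicate 4 or 5. Of 19 immediate early genes 6 rose (31.6%, against 7.58% of all genes tested) and 0 fell (median 0.68). Among the rises was Klf4, a zinc finger factor (0.82 ± 0.19). These rises numbered 12 without the lane term and 3 without week 4 replicate 3 or 5. They numbered 2 without week 4 replicate 6 or week 1 replicate 2, 4, 5 or 8.

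Nuclear genes of the respiratory chain had small falls. All 36 nuclear complex I subunits and all 39 subunits of complexes II to V had estimates below 0, with medians of -0.47 and -0.53. Of these, 25 (69.4%) and 23 (59.0%) fell, against 7.51% of all genes tested. Ndufs1, the largest subunit of complex I, had 164, 252 and 325 CPM in week 4 libraries, against 338, 354 and 405 CPM in week 1 libraries (log2 fold change -0.51 ± 0.12, adjusted p = 0.0132 by edgeR), with no overlap. Uqcrc1, a core protein of complex III, had 190, 269 and 441 CPM in week 4 libraries, against 351, 439 and 571 CPM in week 1 libraries (-0.59 ± 0.12). The 5 lane 2 libraries of week 4 lay below the week 1 range of Uqcrc1 and the 3 of lane 4 inside it. Ndufb10, an accessory subunit of complex I, fell by 0.64, Cyc1 (cytochrome c1) by 0.63 and Sdhb, the iron-sulphur subunit of complex II, by 0.66 on the log2 scale.

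**Figure D4:**
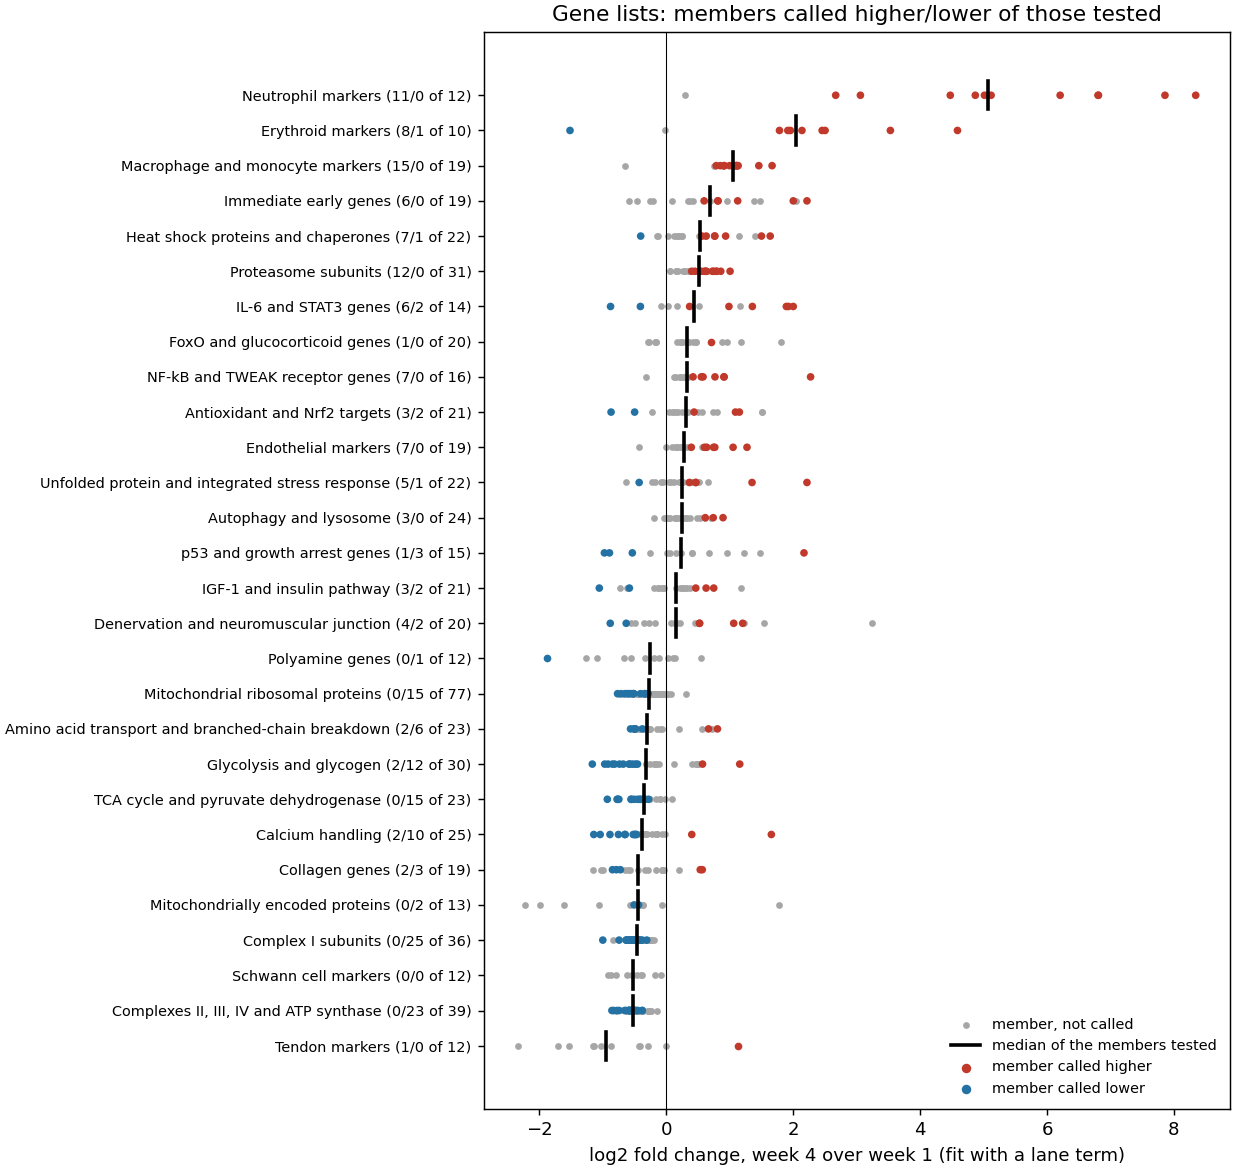
Log2 fold change of week 4 over week 1 (x axis) of every member tested, as points, for 28 gene lists (y axis) with the members called higher/lower of those tested in brackets and the median as a bar. Neutrophil markers (median 5.07) stand farthest to the right, and the members of both respiratory chain lists lie close together below 0.

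These calls depended on how lane was handled. Without the lane term 7 complex I genes and 8 genes of the other complexes fell, with medians of -0.52 and -0.57, and Sdhb was not called (adjusted p = 0.0948). The complex I median was -0.64 within lane 2 and -0.14 within lane 4, and that of the other complexes was -0.66 and -0.26. Complex I falls numbered 5, 15 and 9 without week 1 replicate 4, 5 and 8, 15 without week 4 replicate 3, and 0 without both week 1 replicates 5 and 8. For the other complexes the count was 11 and 13 without week 1 replicate 4 and 8, and 4 without both replicates 5 and 8. The 13 mitochondrially encoded proteins had a median of -0.44, with 2 lower (15.4%, against 7.51% of all genes tested) and 0 higher. Those lower numbered 0 without week 1 replicate 4 or 5 and 4 without week 4 replicate 7. They numbered 1 without week 4 replicate 4 or 6 or week 1 replicate 3 or 8. The median of the 13 was -0.62 within lane 2 and 0.23 within lane 4. Week 1 replicates 5 and 8, on lane 2, had mitochondrial read shares of 21.6% and 20%, and their part in these values was not tested.

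The citric acid cycle and pyruvate dehydrogenase genes also fell, 15 of 23 (65.2%, against 7.51% of all genes tested) with 0 higher (median -0.36). Without the lane term 14 fell. Idh3a, a catalytic subunit of mitochondrial isocitrate dehydrogenase, had 211, 331 and 499 CPM in week 4 libraries, against 546, 596 and 649 CPM in week 1 libraries (log2 fold change -0.78 ± 0.15, adjusted p = 0.00369 by edgeR). It did not overlap between the groups. Dlat, the acetyltransferase of pyruvate dehydrogenase, fell by 0.77 and Fh1 (fumarase) by 0.55 on the log2 scale. Without week 1 replicate 4, 5 or 8 the count of falls was 7, 9 and 9, and it was 2 without both replicates 5 and 8. Esrra, the nuclear receptor that drives many of these genes, had 14.2, 33.8 and 70.4 CPM in week 4 libraries, against 50.8, 68.8 and 82.2 CPM in week 1 libraries (-0.87 ± 0.20, adjusted p = 0.0119), and Sirt3, the mitochondrial deacetylase, fell by 0.72. Ppargc1a (PGC-1 alpha), a coactivator of Esrra, had 37.6, 41.7 and 59.9 CPM in week 4 libraries, against 36.8, 47.7 and 61.5 CPM in week 1 libraries (-0.30 ± 0.11, adjusted p = 0.0626). Mitochondrial ribosomal proteins fell in 15 of 77 (19.5%, against 7.51% of all genes tested) with 0 higher (median -0.27). Among these 15 were Mrpl4 and Mrpl19, by 0.56 and 0.60 on the log2 scale. That count was 9, 8 and 9 without week 4 replicate 3, 4 and 6, 5, 8 and 7 without week 1 replicate 4, 5 and 8, and 0 without both replicates 5 and 8. Cytosolic ribosomal proteins had a median of 0.02 with 3 of 79 higher (3.80%, against 7.58% of all genes tested) and 0 lower. The 3 rises became 0 without week 1 replicate 2, 3 or 5 and 1 without week 1 replicate 4 or week 4 replicate 4 or 6.

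Glycolysis and glycogen genes fell in 12 of 30 (40%, against 7.51% of all genes tested), with 2 higher (median -0.33). The share higher, 6.67%, was near the 7.58% of all genes. Pfkfb1, which makes the activator of phosphofructokinase, had 13.5, 35.5 and 58.4 CPM in week 4 libraries, against 53.3, 70.2 and 92.6 CPM in week 1 libraries (log2 fold change -1.17 ± 0.21, adjusted p = 0.00284 by edgeR). Eno3, the muscle enolase, had 1015, 2180 and 4868 CPM in week 4 libraries, against 3761, 5431 and 6175 CPM in week 1 libraries (-0.97 ± 0.20, adjusted p = 0.00587). Phka1, the muscle subunit of phosphorylase kinase, fell by 0.74 on the log2 scale with no overlap. Gapdh, for which reads that also match pseudogene copies stayed out of the counts, fell by 0.59. The count of falls was 7 without week 1 replicate 4, 5 or 8 and 0 without both replicates 5 and 8. The count of rises was 0 without week 1 replicate 4 or 8, 1 without week 1 replicate 6 or week 4 replicate 4, 5 or 6, and 4 without week 4 replicate 7. Fatty acid genes had 1 of 30 higher and 3 lower (median -0.10; 13.3% called, against 15.1% of all genes tested), with 0 lower without week 1 replicate 4 and 1 without week 1 replicate 3, 5 or 8. Of 23 genes of amino acid transport and branched-chain breakdown 2 rose (8.70%, near the 7.58% of all genes) and 6 fell (26.1%, against 7.51%). Among them were Slc3a2, the heavy chain of large amino acid transporters (0.80 ± 0.16), and Glud1 (glutamate dehydrogenase, -0.38 ± 0.08), both with no overlap. The 6 falls became 3 without week 4 replicate 6 and 1, 2 and 2 without week 1 replicate 4, 5 and 8. They became 0 without both replicates 5 and 8.

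Genes of the contractile apparatus moved in both directions. Csrp3 (muscle LIM protein of the Z-disc) had 22.1, 89.8 and 137 CPM in week 4 libraries, against 10.8, 19.9 and 34.6 CPM in week 1 libraries (log2 fold change 2.19 ± 0.38, adjusted p = 0.00369 by edgeR), a 4.57-fold difference. Replicate 1 of week 4 stood alone inside the week 1 range, at 22.1 CPM. Xirp1 (Xin), an actin-binding repair protein, had 147, 330 and 696 CPM in week 4 libraries, against 73.8, 106 and 128 CPM in week 1 libraries (1.77 ± 0.29, adjusted p = 0.00205). Ankrd2, a stretch-responsive ankyrin repeat protein, rose by 1.46 ± 0.23, and neither of these overlapped.

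Actc1 (cardiac alpha-actin, the fetal form in skeletal muscle) had 42.1, 66.6 and 253 CPM in week 4 libraries, against 210, 330 and 586 CPM in week 1 libraries (log2 fold change -2.16 ± 0.33, adjusted p = 0.00156 by edgeR), a 4.47-fold difference. Replicates 7 and 8 were its highest at week 4, at 253 and 169 CPM. Mybph (myosin-binding protein H) had 12.1, 19.3 and 140 CPM in week 4 libraries, against 60.4, 120 and 153 CPM in week 1 libraries (-1.77 ± 0.53, adjusted p = 0.0409), and the call was lost in 11 of the 16 fits that left out 1 library, with adjusted p up to 0.0907 without week 1 replicate 5. Fhl3, a LIM protein of muscle, fell by 0.90 on the log2 scale. In all, 4 of 29 sarcomere and Z-disc genes (median 0.01) rose (13.8%) and 5 fell (17.2%), against 7.58% and 7.51% of all genes tested. The falls numbered 3 without week 4 replicate 3, 4 or 6 and 2 without week 1 replicate 4, 5 or 8.

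Of 17 fast fibre genes 5 fell (29.4%, against 7.51% of all genes tested) and 0 rose (median -0.25). Myl1 and Mylpf, the fast myosin light chains, fell by 0.85 and 0.87 on the log2 scale (adjusted p = 0.00817 and 0.00488 by edgeR), the second with an adjusted p of 0.0517 without the lane term. Casq1 (calsequestrin 1), the calcium store protein of fast fibres, had 324, 948 and 2067 CPM in week 4 libraries, against 2108, 2429 and 2648 CPM in week 1 libraries (-1.14 ± 0.28, adjusted p = 0.0168), and replicates 7 and 8 lay just below the week 1 range. Calcium handling genes (median -0.38) fell in 10 of 25 (40%), with 2 higher (8%), against 7.51% and 7.58% of all genes tested. Their falls numbered 4 and 3 without week 4 replicate 3 and 6. They numbered 1, 2 and 1 without week 1 replicate 4, 5 and 8, and 0 without both replicates 5 and 8. The main fast myosin, Myh4, did not pass the test (-0.30 ± 0.16, adjusted p = 0.199), nor did the slow myosin Myh7 (0.35 ± 0.31, adjusted p = 0.463). Of 17 slow fibre genes 1 rose, Csrp3 (5.88%, against 7.58% of all genes tested), and 0 fell.

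Other large falls were of genes with varied roles in muscle. Foxo6os, a noncoding gene beside Foxo6, had 0.192, 1.82 and 8.08 CPM in week 4 libraries, against 8.08, 12.7 and 29.4 CPM in week 1 libraries (log2 fold change -2.73 ± 0.45, adjusted p = 0.00283 by edgeR). It is annotated as antisense, but the GENCODE models of both genes do not overlap. Foxo6, looked up after these values were seen, fell by 2.47. Nrep, a neuronal regeneration protein, had 7.18, 22.3 and 75.2 CPM in week 4 libraries, against 66.4, 124 and 229 CPM in week 1 libraries (-2.14 ± 0.42, adjusted p = 0.00782), and week 4 replicates 7 and 8 alone reached the week 1 range.

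Smox (spermine oxidase), of the polyamine pathway, had 60.3, 96.5 and 394 CPM in week 4 libraries, against 383, 468 and 748 CPM in week 1 libraries (log2 fold change -1.88 ± 0.36, adjusted p = 0.00629 by edgeR), a 3.67-fold difference. It was the only one of 12 polyamine genes called (8.33%, against 15.1% of all genes tested). Mettl21e, a lysine methyltransferase of muscle, had 0.833, 2.06 and 8.09 CPM in week 4 libraries, against 4.71, 9.15 and 12.7 CPM in week 1 libraries (-2.06 ± 0.38). Smco1, a single-pass membrane protein, had 5.45, 20.4 and 56.0 CPM in week 4 libraries, against 59.0, 69.8 and 77.2 CPM in week 1 libraries (-1.64 ± 0.33), with no overlap. Kcng4, a modifier subunit of potassium channels, fell by 1.59, Fgfbp1, an FGF carrier that supports the neuromuscular junction, by 1.57 and Mdga1, a membrane glycoprotein, by 1.54. Fgfbp1 and Mdga1 were not called without week 1 replicate 4 (adjusted p = 0.0694 and 0.0545), 5 (0.0598 and 0.0571) or 8 (0.0571 and 0.0539).

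Of the main regulators of muscle growth, neither myostatin nor Igf1 passed the test. Mstn (myostatin), the inhibitor of muscle growth, had 94.8, 153 and 194 CPM in week 4 libraries, against 82.1, 121 and 145 CPM in week 1 libraries (log2 fold change 0.24 ± 0.14, adjusted p = 0.245 by edgeR). Igf1 had 17.2, 23.6 and 44.6 CPM in week 4 libraries, against 20.6, 25.2 and 52.5 CPM in week 1 libraries (-0.05 ± 0.23, adjusted p = 0.893). Of 21 genes of the IGF-1 and insulin pathway 3 rose and 2 fell (23.8% called, against 15.1% of all genes tested), among them Inppl1 (SHIP2), a phosphatase that limits the pathway (-0.58 ± 0.15). The count of rises was 0 without week 1 replicate 4 and 5 without week 1 replicate 2 or week 4 replicate 7. Of 22 mTOR and translation control genes 1 rose and 3 fell (18.2% called), with 0 falls without week 1 replicate 4 or 5 and 1 without week 1 replicate 8 or week 4 replicate 3 or 6. Of 20 denervation genes 4 rose (20%) and 2 fell (10%), against 7.58% and 7.51% of all genes tested. Of 22 myogenic genes 2 rose (9.09%, near the share of all genes) and 0 fell (5 rose without week 4 replicate 7). Myog (myogenin), on both lists, had 4.77, 6.42 and 12.0 CPM in week 4 libraries, against 2.21, 3.63 and 5.23 CPM in week 1 libraries (1.06 ± 0.23, adjusted p = 0.00871), and Dll1, a Notch ligand, rose by 1.01 ± 0.23. The denervation count of rises was 1 without week 4 replicate 6 or week 1 replicate 3, 4 or 5, and 2 without week 1 replicate 8. That of falls was 0 without week 1 replicate 4 or 5, 1 without week 1 replicate 8 or week 4 replicate 3, 4 or 6, and 4 without week 4 replicate 8.

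Clock genes were called in both directions, 3 of 19 higher (15.8%) and 5 lower (26.3%), against 7.58% and 7.51% of all genes tested. Clock, a core activator of the loop, rose by 0.56 ± 0.12 on the log2 scale (adjusted p = 0.00969 by edgeR). The repressors Bhlhe41 (DEC2) and Nr1d2 (REV-ERB beta) fell by 0.84 and 0.54 (adjusted p = 0.00381 and 0.0124). The labels do not give the hour at which muscles were taken. The count of falls was 2 or 3 without week 1 replicate 3, 4, 5 or 8 or week 4 replicate 2, 3, 4, 6 or 8, and 3 without the lane term.

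Of 19 collagens, with a median of -0.44, 2 rose (10.5%) and 3 fell (15.8%), against 7.58% and 7.51% of all genes tested. The median was -0.04 within lane 2 and -0.93 within lane 4, where 3 libraries stand against 2, and the direct test of the lanes called no collagen. Col3a1 (type III collagen) had 53.3, 79.0 and 150 CPM in week 4 libraries, against 98.4, 159 and 210 CPM in week 1 libraries (log2 fold change -0.79 ± 0.23, adjusted p = 0.0329 by edgeR). Its call was lost without week 4 replicate 6 or 8 or week 1 replicate 2, 3, 4 or 8, with adjusted p of 0.0533 to 0.0775. Col1a1 (type I collagen) had 24.1, 32.8 and 101 CPM in week 4 libraries, against 65.0, 75.2 and 178 CPM in week 1 libraries (-1.16 ± 0.40, adjusted p = 0.068), and its adjusted p was 0.0215 without the lane term and 0.02 without week 4 replicate 1. Col1a1 was called in only 1 of the 16 fits that left out 1 library, with adjusted p up to 0.15 (edgeR) in the others. Col5a1 and the crosslinking enzyme Loxl2 fell by 0.72 and 0.89. Without week 4 replicate 1 the count of collagen falls was 9, without week 1 replicate 4 it was 1, and without the lane term it was 7.

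Tendon markers, a sign of how much tendon was taken with the muscle, were summed at 36.6 to 579 CPM in week 4 libraries and 98.8 to 355 CPM in week 1 libraries. Of these 12 markers 1 was called higher (8.33%, near the 7.58% of all genes tested) and 0 lower. Their median was -0.95 over the 16 libraries, with 11 of the 12 below 0, and 4 fell without week 4 replicate 1. Within lane 2 the median was 0.11 and within lane 4 it was -2.74. Of 14 fibro-adipogenic markers 1 rose (7.14%) and 3 fell (21.4%), against 7.58% and 7.51% of all genes tested. Among the falls was Mfap5, a microfibril protein (-0.64 ± 0.14), and 5 markers fell without the lane term or without week 4 replicate 1. Their part in the collagen values was not tested. Adipocyte (13 tested) and Schwann cell markers (12 tested) had 0 called, with medians of -0.14 and -0.53. All 12 Schwann cell markers had estimates below 0, and 8 were called lower without week 4 replicate 7. Of 13 pericyte and smooth muscle markers 1 rose, Mcam (0.55 ± 0.09), and 1 fell, which is 7.69% each way and near the 7.58% and 7.51% of all genes tested.

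The order of levels over the course is a description, since PBS shares no lane with week 4. For S100a9 the medians were 1.44 CPM in PBS and 0.663, 0.573, 10.8 and 39.8 CPM at weeks 1 to 4. Those of Fbxo32 were 549 CPM in PBS and 393, 451, 1277 and 1926 CPM at weeks 1 to 4, and those of Smox 409 CPM in PBS and 468, 410, 209 and 96.5 CPM. At week 3 the libraries ranged from 413 to 1804 CPM for Fbxo32 and from 25.5 to 531 CPM for Smox. Csrp3 and Actc1 took another course. Csrp3 had a median of 74.3 CPM in PBS and 19.9, 41.3, 92.4 and 89.8 CPM at weeks 1 to 4, so that its week 4 level lay near that of PBS and its week 1 level below it. Actc1 had 166 CPM in PBS and 330, 363, 88.9 and 66.6 CPM at weeks 1 to 4, with week 1 above PBS and week 4 below.

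**Figure D5:**
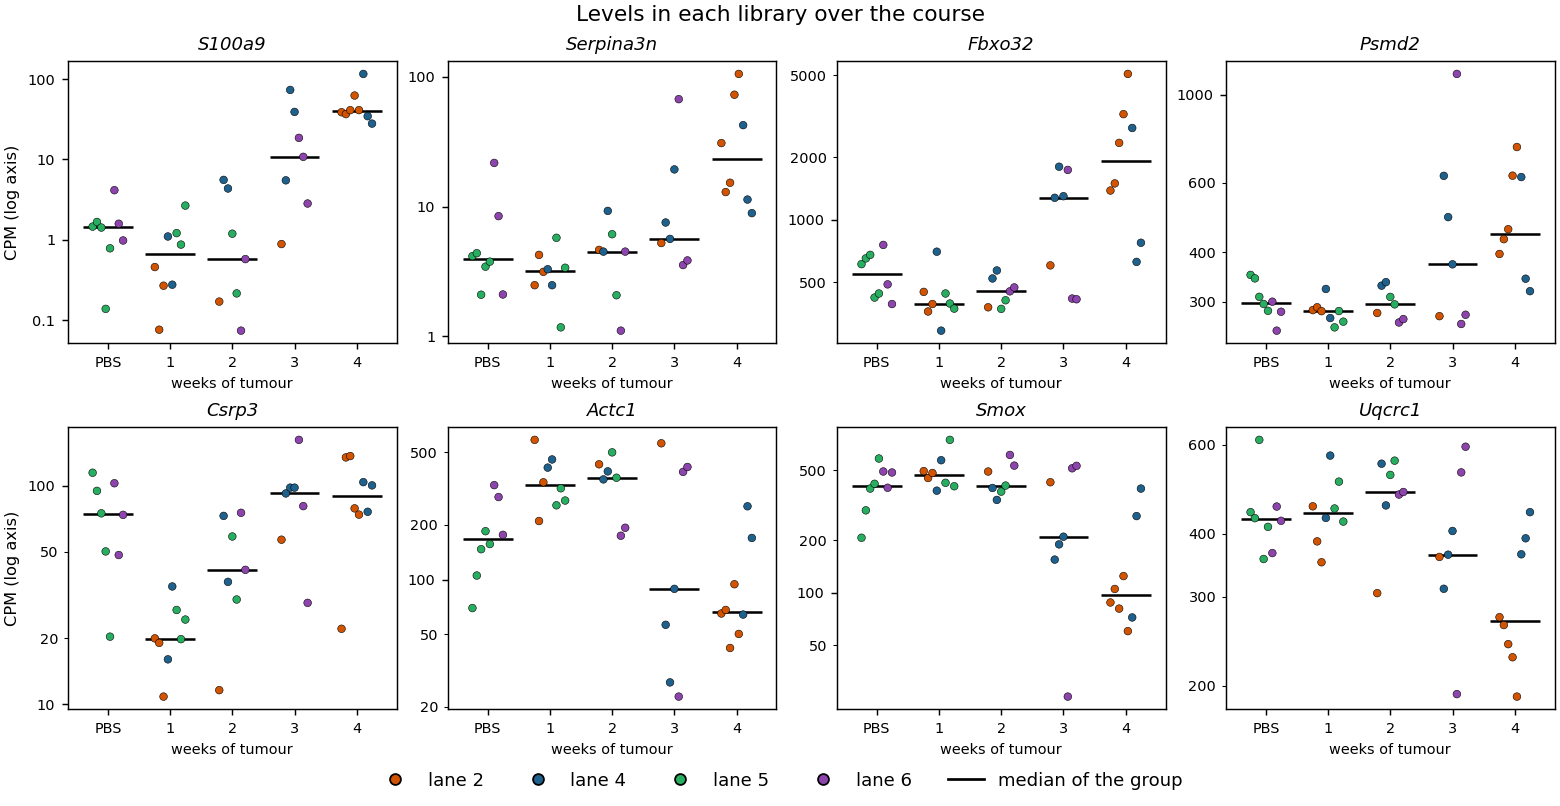
Levels in CPM (log axes) of 8 genes in each library of PBS and weeks 1 to 4 (x axis), coloured by lane, with group medians as lines. S100a9, Serpina3n, Fbxo32 and Psmd2 are high at week 4, Csrp3 is low at week 1 (median 19.9 CPM), and Smox and Uqcrc1 are low in most week 4 libraries.

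Libraries that took no part in the comparison allow the direction to be read again. Between week 3 and week 2, with 7 libraries each and a lane term, 0 of 13608 genes were called (edgeR), and 995 had an unadjusted p under 0.05. Of 984 genes called higher at week 4 than at week 1 and tested there, 884 (89.8%) were above 0 in week 3 over week 2, with a median log2 fold change of 0.27. Of 1024 called lower, 909 (88.8%) were below 0, with a median of -0.20. Among all 13455 genes tested in both, 50.2% were above 0. The estimates were 3.50 for S100a9, 1.07 for Fbxo32, 0.97 for Csrp3 and -0.74 for Smox, while Cd274 and Tfrc, both lower at week 4, stood above 0 at 0.38 and 0.31.

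The authors' deposited table of week 4 over week 1 lists 3336 genes, 1969 higher and 1367 lower, all under an adjusted p of 0.05. Of these, 3068 were tested here and 3067 had the same sign. In all, 1840 genes were called in both with the same sign, which is 88.9% of the 2070 called here and 60% of the 3068 of the authors' deposited table tested here.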

How the data were processed

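RNA was taken with Trizol from frozen gastrocnemius and 1 µg of total RNA went into Illumina TruSeq RNA libraries, per the labels' protocols. The deposited files hold whole read counts per Ensembl gene; the submitters' processing notes name FastQC, HISAT2, HTSeq and GRCm38.p5, without versions, strand setting or annotation. The authors' deposited table of week 4 over week 1 holds log2 fold changes with standard errors and, per the file headers, a p-value and adjusted p-value per gene; DESeq2 is named in the submitters' processing notes. Lines of reads in no gene, in more than 1 gene, unaligned or matching more than 1 place stayed out of library sizes; reads in genes made up 63.6% to 80.9% of a library. Of 46078 genes in the files, 45143 have a GENCODE M21 name. No pair of libraries in a group was alike (chi-square per degree of freedom at least 15.3).

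The test was edgeR 4.0.16 under R 4.3.3 (TMM, filterByExpr with minimum count 10, robust quasi-likelihood fit with terms for lane and group over 16 libraries, 12 residual degrees of freedom), with Benjamini-Hochberg adjustment over all 13718 genes. The code of the test was run on simulated counts with known changes and the same dispersion for all genes. These counts do not hold the spread among week 4 libraries seen here, so they do not bear on the calls. Standard errors come from each log2 fold change divided by the square root of its F statistic. Levels are given as CPM after TMM scaling, and depth limits mainly the genes near 0. Gene lists are described by counts and medians, with no set test. Of the named genes, 12 rises and 12 falls are the largest among calls with a mean of 5 CPM or more (no predicted genes or pseudogenes), 15 were always named, and up to 4 members of smallest p were taken from each list; a few genes the rule names are not reported here. Members, lists, rule and tests were chosen with earlier results of these data known. Alternatives were other lane terms, single lanes, all 5 groups, RLE and upper quartile factors, other filters, DESeq2 1.42.0, limma 3.58.1 voom, a test against a 1.5-fold change, and fits that drop each library in turn. Added after seeing the data were the share of multi-place reads as a covariate and leaving out week 1 replicates 5 and 8. Promoters are from RefSeq (GRCm38.p6); Fbxo32 had none in that table.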

Additional observations from a re-analysis of the deposited data

Results flagged for a closer look

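Over the 110 genes described, single libraries that stood apart from the other 7 of their group on the log2 scale (Dixon's gap) were looked for in 220 sets of 8 libraries, and 9 were found. Chance flags about 1 in 20 sets. At week 4, replicate 1 was low for Csrp3 (22.1 CPM, next 73.9 CPM), replicate 5 was low for Fhl3 (33.4 CPM, next 64.8 CPM) and for Bhlhe41 (15.8 CPM, next 27.1 CPM), and replicate 6 was high for Lyz2 (108 CPM, next 78.3 CPM). At week 1, replicate 3 was low for Sqstm1 (414 CPM, next 498 CPM) and for Junb (1.82 CPM, next 3.04 CPM) and high for Ndufs1 (405 CPM, next 360.0 CPM). Replicate 5 of week 1 was low for Col3a1 (98.4 CPM, next 149 CPM) and for Hbb-bt (11.1 CPM, next 32.8 CPM).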

How the results depend on the processing

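Of the 2070 calls, those tested kept their sign under every alternative but lane 4 alone, where 2060 of 2067 did. Counts of calls stayed within 1.5 times of 2070 with RLE or upper quartile factors, other filters, DESeq2, limma voom, other lane terms and the multi-place covariate. They were 1345 (605 lower) with only lane 2, 16 (12 higher, 4 lower) with only lane 4, 3299 (1886 higher) with all 5 groups and no lane term, 133 (123 higher, 10 lower) for changes of at least 1.5 times, and 246 (171 higher, 75 lower) without week 1 replicates 5 and 8. Leaving out 1 library gave 828 to 2671 calls, 469 to 1354 higher and 359 to 1317 lower. The direct test between lanes called 1 gene, also in each such fit, and 0 among genes of at least 5 CPM on average. Lane 4 held only 3 week 4 and 2 week 1 libraries, so genes not called may still differ between lanes. Without a lane term the shares of called genes with the sign of week 4 in week 3 over week 2 were 91.67% and 91.5%. Of 100 described genes that were called, 84 were called in all 16 fits that left out 1 library. Foxo1 turned to -0.056 with limma voom, and Igf1 to 0.025 with only lane 2 and, over the fits that left out 1 library, lay between -0.2207 and 0.12, above 0 without week 4 replicate 6 (0.044) or 8 (0.0015) or week 1 replicate 3 (0.12); neither was called. The cause of these shifts was not tested. The fits of single lanes and of left-out libraries also held fewer libraries. No paired analysis was possible because the labels give no link between libraries of the groups.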
